A study of Zea mays with 12 samples.

Results

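The maize gene floury3 (fl3, gene model GRMZM2G006585) was followed as 1 gene out of 39448 gene models, of which 17058 were expressed highly enough to be tested, across all 12 libraries of an RNA sequencing study of endosperm, the storage tissue of the kernel, taken 16 days after pollination. It was chosen by its own measured values, namely its rank among abundant transcripts and its higher level in every mutant genotype, so its levels, ranks and ratios are a description and carry no test. The 4 genotypes had 3 biological replicates each. They were PbfRNAi;o2, which carries both lesions and is called the double genotype, the opaque2 mutant (o2), a line with RNA interference against the PBF gene (PbfRNAi), and wild type (WT). Plants of all 4 were grown in the field. The sources used here do not name the promoter of the interference construct, the number of transformation events, the o2 allele or the inbred background.

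PLATZ proteins are a plant-specific family of zinc-binding proteins that bind DNA rich in A and T. FL3 is an endosperm member of this family, and kernels with the floury3 mutation have soft, opaque endosperm. FL3 is known to bind parts of the RNA polymerase III machinery, which makes transfer RNAs and the smallest ribosomal RNA. O2, a bZIP factor, and PBF, a Dof factor, are known to switch on genes for zeins, the chief seed storage proteins of maize.

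The fl3 transcript was most abundant in the double genotype, with FPKM (mapped fragments scaled by transcript length and library total) of 6992, 5133 and 4497 in replicates 1, 2 and 3. The o2 libraries stood at 1182, 4614 and 4156, the PbfRNAi libraries at 2339, 2589 and 2092, and the WT libraries at 443, 612 and 513. All 9 mutant libraries lay above all 3 WT libraries, and the lowest of them, o2 replicate 1, was 1.93 times the highest WT library. The same separation of 9 from 3 libraries was found in 18.6% of the tested genes. In bulk tissue, a change in the number of cells that make a transcript and a change in its amount per cell cannot be told apart.

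Mean levels ran in the order double genotype, o2, PbfRNAi, WT. They were 5541 ± 1297 FPKM in the double genotype, 3317 ± 1863 in o2, 2340.3 ± 249 in PbfRNAi and 522 ± 85.001 in WT (SD, n = 3 each). Not all neighbours in this order were apart. The double genotype overlapped with o2, its lowest library standing at 0.975 of the highest o2 library, and o2 overlapped with PbfRNAi through o2 replicate 1. The lowest library of the double genotype was 1.74 times the highest PbfRNAi library, and the lowest PbfRNAi library was 3.42 times the highest WT library, so neither of these pairs overlapped.

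**Figure D1:**
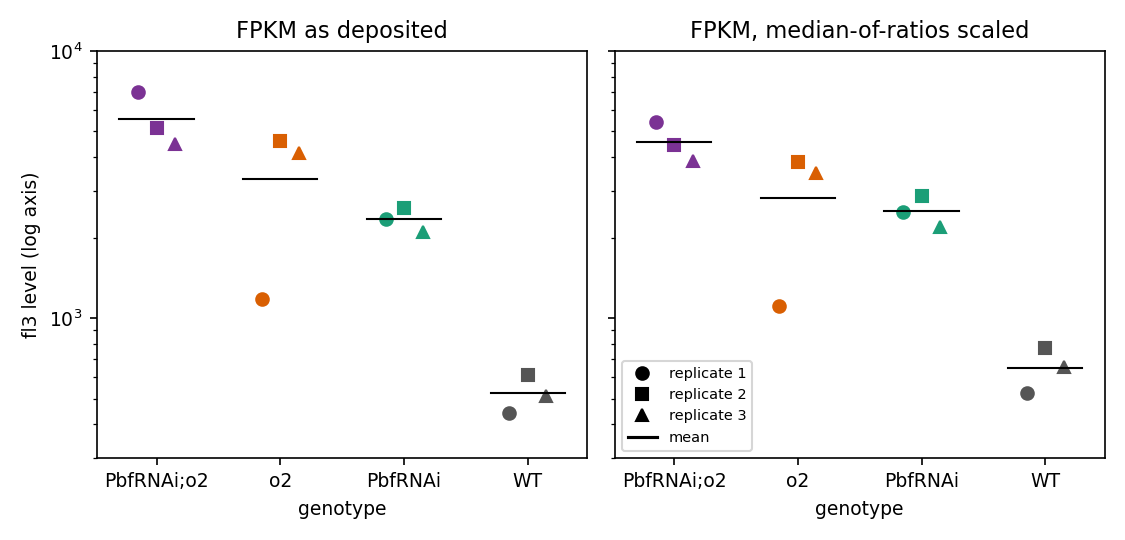
The fl3 level in each library (points, by replicate number) with the mean of each genotype (line), as FPKM as deposited and after median-of-ratios scaling. All 9 mutant libraries lie above the 3 WT libraries, and o2 replicate 1 lies at 1182 FPKM, against 4614 and 4156 in the other o2 libraries.

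The mean of the double genotype was 10.6 times that of WT, and leaving out any 1 library of the compared genotypes gave 9.22 to 11.6. The o2 mean was 6.35 times that of WT, with 5.11 to 8.39 when 1 library was left out, the highest value being that without o2 replicate 1. The PbfRNAi mean was 4.48 times that of WT, with 4.16 to 4.90. These 3 ratios share the WT libraries. As differences in log2(FPKM + 1) they were 3.39, 2.45 and 2.17 in that order, against medians over all tested genes of 0.48, 0.41 and 0.16. Larger log2 differences were found in 65 genes in the double genotype, 57 in o2 and 139 in PbfRNAi.

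The medians above show that the typical gene also had higher FPKM in the mutants, so the ratios were recomputed under other scalings of the libraries. With median-of-ratios scaling, which sets the typical gene level, the fl3 means were 4575 ± 785 in the double genotype, 2813 ± 1482 in o2, 2514 ± 341 in PbfRNAi and 653 ± 126 in WT (SD, n = 3 each). The ratio to WT was then 7.01 in the double genotype, 4.31 in o2 and 3.85 in PbfRNAi. Scaling to the sum of the genes outside the 100 most abundant gave 6.21, 4.07 and 3.74 in that order, and TPM, which sets the FPKM sum of each library equal, gave 9.39, 5.77 and 3.90. The order of these ratios of means was the same in all 4 cases. As mean log2 differences after median-of-ratios scaling, o2 (1.93) and PbfRNAi (1.95) were nearly equal, below the double genotype (2.81).

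**Figure D2:**
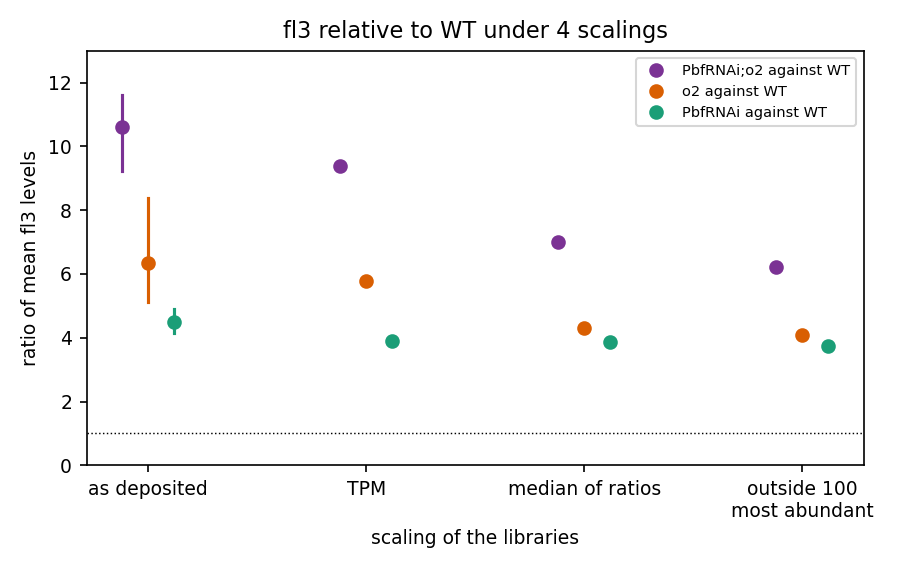
Ratio of the mean fl3 level in each mutant genotype to that in WT under 4 scalings of the libraries; bars on the deposited values show the range when any 1 library is left out. The ratio of the double genotype is 10.6 as deposited and 6.21 when scaled to genes outside the 100 most abundant, and that of PbfRNAi is 4.48 and 3.74.

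In the abundance order of all gene models, fl3 ranked 8 by its mean in the double genotype, 16 in o2, 23 in PbfRNAi and 59 in WT. By library the ranks were 3, 10 and 10 in the double genotype, 35, 10 and 11 in o2, 21, 23 and 27 in PbfRNAi, and 70, 47 and 56 in WT. Ranks in WT and in o2 replicate 1 carry an added uncertainty. In WT replicates 1, 2 and 3, 1, 4 and 3 models were listed at 0 that stood at 1000 FPKM or more in another library, as was 1 model in o2 replicate 1, and a 0 in such a table can be a failed estimate. As a share of the summed FPKM of a library, fl3 took 1.10% ± 0.277 in the double genotype, 0.677% ± 0.381 in o2, 0.458% ± 0.0524 in PbfRNAi and 0.117% ± 0.0228 in WT (SD, n = 3 each).

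**Figure D3:**
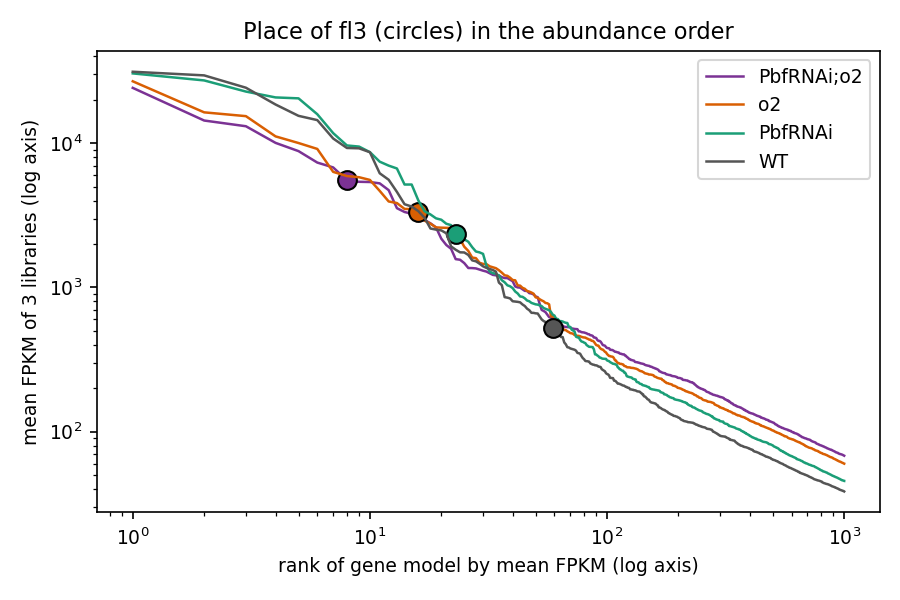
Mean FPKM of the most abundant gene models against their rank in each genotype, both on log axes, with fl3 as a marker on each line. The marker stands at rank 8 in the double genotype, 16 in o2 and 23 in PbfRNAi, against 59 in WT.

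The genes next to fl3 in this order place its level among other transcripts. In the double genotype 7 models lay above it. They were the gamma-zein genes gz16 and gz27 at 24222 and 13128 FPKM, the alpha-zein gene z1A2_1 at 8824, the beta-zein gene bz15 at 7350, grp1 at 6801, and the models AF546188.1_FG007 and AF546188.1_FG005, which have no gene name in the reference table, at 14381 and 10067. Just below fl3 came the legumin gene leg1 at 5407 ± 612 and hag at 5388 ± 1287, both within the spread of fl3.

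In o2 the models next above were AF546187.1_FG001 at 3506 ± 2545 and sh2, for the large subunit of ADP-glucose pyrophosphorylase in starch synthesis, at 3495 ± 1090. Next below were GRMZM2G046532 at 2908 ± 280 and the sucrose synthase gene sh1 at 2769 ± 483. All 4 were within the spread of fl3 in o2. In PbfRNAi the neighbours above were GRMZM2G012806 at 2767 ± 231 and GRMZM2G012928 at 2706 ± 639, and those below were the sorbitol dehydrogenase gene sdh1 at 2194.5 ± 171 and sh1 at 2158 ± 259. In WT they were GRMZM2G130987 at 552 ± 45.96 and the pyruvate phosphate dikinase gene pdk1 at 523 ± 98.04 above, and GRMZM2G027392 at 498 ± 24.6 and the aldolase gene ald1 at 486 ± 244 below.

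Beside genes that carry a transcription factor name in the reference table, a list made after the values were seen, fl3 stood near the top. The 183 tested genes of that list had a median of 4.43 FPKM in the double genotype, 4.12 in o2, 3.36 in PbfRNAi and 3.09 in WT. The most abundant of them was GRMZM2G154182, listed under the names nac4 and Asn1, at 972 ± 237 in the double genotype, 1030 ± 236 in o2, 677 ± 224 in PbfRNAi and 858 ± 252 in WT. The fl3 mean was 5.70 times that level in the double genotype, 3.22 times in o2 and 3.46 times in PbfRNAi, but 0.609 of it in WT. The next in the list were far lower, at 161 FPKM for Nkd1 in the double genotype, 293 for pbf1 in o2, 119 for o2 in PbfRNAi and 204 for o2 in WT.

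Few genes were separated from WT as widely as fl3, whose own gap in deposited FPKM set the limit. Of all 17058 tested genes, 41 had a lowest mutant library at least 1.93 times the highest WT library, fl3 included. Genes at 0 in every WT library were not counted. Of 438 tested genes with a mean of at least 100 FPKM, 3 met the limit. Besides fl3 these were grp1, at 6801 ± 625 in the double genotype, 3950 ± 347 in o2, 5176 ± 1218 in PbfRNAi and 1081 ± 266 in WT, and GRMZM2G404688, at 358 ± 67.2, 481 ± 90.98, 113 ± 45.6 and 0.150 ± 0.130 in the same order (SD, n = 3 each). Both were named after their values were seen.

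The transcripts of the targeted factors show the state of each genotype. The o2 transcript averaged 0.462 ± 0.297 FPKM in the double genotype, 0.467 ± 0.268 in o2 and 119 ± 19.3 in PbfRNAi, against 204 ± 22.01 in WT (SD, n = 3 each). The pbf1 transcript (GRMZM2G146283) averaged 59.5 ± 4.97 in the double genotype, 293 ± 45.9 in o2 and 46.6 ± 9.09 in PbfRNAi, against 103 ± 6.41 in WT. It fell in the double genotype (log2 difference −0.79; limma adjusted p = 0.00086) and in PbfRNAi (−1.15; limma adjusted p = 0.00017), and rose in o2 (1.48; limma adjusted p = 4.8e-05). In WT fl3 was 2.55 times as abundant as o2 and 5.05 times as abundant as pbf1, and in the double genotype 93.2 times as abundant as pbf1. The 10 starchy endosperm marker models, 1 of them below 1 FPKM in every library, summed to 41164 to 66319 FPKM over the libraries. Of this gz16 alone held 16385 to 32821, and single members moved in different directions. From WT to the double genotype, mean gz50 went from 6194 to 230 FPKM and bz15 from 18575 to 7350. Over the same step leg1 went from 1828 to 5407 and sh2 from 1542 to 2786. Of 3 aleurone marker models found, c1 was listed at 0 in every library, r1 stood at no more than 0.0794 FPKM, and vpp1 stood at 73.2 to 122. The embryo regulator lec1 and the leaf gene psbS1 were listed at 0 in every library, while the embryo markers found summed to 327 to 630 FPKM, mostly from ole1.

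Replicates differed most in o2. The highest o2 library had 3.90 times the fl3 level of the lowest, against 1.56 times in the double genotype, 1.24 in PbfRNAi and 1.38 in WT. In o2 replicate 1 fl3 was at 0.270 of the mean of replicates 2 and 3, and 0.193% of tested genes had a lower log2 difference between these libraries. In the double genotype replicate 1 stood at 1.45 times the mean of the other replicates, in PbfRNAi at 0.999 and in WT at 0.788. Across tested genes, which are not independent replicates, r lay between 0.989 and 0.995 for replicates 2 and 3 of a genotype and between 0.955 and 0.97 for replicate 1 with either.

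Markers of the basal transfer layer, cells at the base of the endosperm that import sugars, also separated the replicate 1 libraries. Their 9 models summed to 192, 629 and 581 FPKM in replicates 1, 2 and 3 of the double genotype, 719, 1086 and 1047 in o2, 98.1, 287 and 259 in PbfRNAi, and 438, 622 and 552 in WT. Replicate 1 was the lowest in each genotype, also where fl3 was highest in replicate 1. Their part in the fl3 values was not tested. In o2 replicate 1, 34 genes including fl3 were as low as fl3 or lower against replicates 2 and 3, and 5 of them averaged at least 100 FPKM in o2. Named after their values were seen, the others were gz27, listed at 0 in replicate 1, which can be a failed estimate, and at 22675 and 23594 in replicates 2 and 3, GRMZM2G139293 at 32.05, 195 and 196, AF546188.1_FG002 at 44.9, 184 and 185, and GRMZM2G510387 at 24.2, 145 and 131.

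Without the 4 replicate 1 libraries, o2 and the double genotype were close. The double genotype was then 1.10 times o2, against 1.67 times with all libraries, and by replicate number the ratio was 5.91 in replicate 1, 1.11 in replicate 2 and 1.08 in replicate 3. Leaving out o2 replicate 1 alone gave 1.26. The double genotype was 2.06 times PbfRNAi without the replicate 1 libraries and 2.37 times with them, and by replicate number 2.99, 1.98 and 2.15 times. The ratios to WT without them were 8.56 in the double genotype, 7.80 in o2 and 4.16 in PbfRNAi.

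How the lesions combined depended on whether gains or ratios were compared. The gain over WT was 5018 FPKM in the double genotype, 2795 in o2 and 1818 in PbfRNAi. The double genotype, at 5541, was at 1.08 times the 5135 FPKM that WT and both single gains add up to, with 0.893 (without o2 replicate 1) to 1.23 when 1 library was left out, and 0.781 without the replicate 1 libraries. With median-of-ratios scaling it was at 0.979 of that sum. Multiplying the single ratios gives 14861, of which the double genotype reached 0.373, with 0.282 to 0.463 when 1 library was left out and 0.422 with median-of-ratios scaling.

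On the log2 scale fl3 in the double genotype fell short of the added single differences by 1.22 (interaction −1.22), and 2.41% of tested genes had an interaction as low or lower. Among 4246 genes with a mean of at least 10 FPKM and higher means in both single genotypes, the median gene stood at 0.943 of the sum and 0.861 of the product. Of these genes 74.2% were below fl3 in the ratio to the sum and 2.03% in the ratio to the product. The comparison of sums was added after the values were seen.

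**Figure D4:**
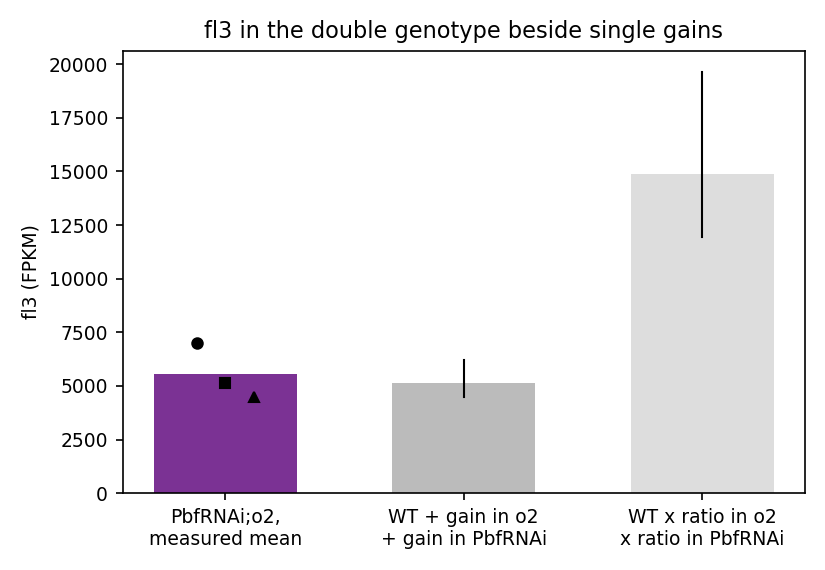
Mean fl3 level in the double genotype with its 3 libraries, beside the level obtained by adding the gains of o2 and PbfRNAi to WT and the level obtained by multiplying their ratios; lines show the range when any 1 library is left out. The measured mean of 5541 FPKM is near the sum of 5135 and under the product of 14861.

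Genes with a profile like that of fl3 were ranked by Pearson correlation of log2(FPKM + 1) over the 12 libraries, among 6103 genes with a mean of at least 10 FPKM. All genes share the libraries and the higher FPKM of the typical gene in the mutants, and the median r was 0.682. The highest r, 0.986, was that of GRMZM2G159221, with 19.8 ± 0.230 FPKM in the double genotype, 17.5 ± 3.68 in o2, 15.1 ± 0.228 in PbfRNAi and 10.4 ± 0.0659 in WT (SD, n = 3 each). GRMZM2G109383 followed at 0.976, with 183 ± 6.27 in the double genotype, 162 ± 32.1 in o2, 133 ± 1.77 in PbfRNAi and 90.04 ± 3.54 in WT. The others of the first 10, with r down to 0.966, were GRMZM2G156251, GRMZM5G862107, GRMZM2G126038, GRMZM2G124809, GRMZM6G370842, GRMZM2G016875, GRMZM2G010328 and GRMZM2G032163. None of the 10 has a gene name in the reference table beyond a locus label.

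Since they were picked by correlation with fl3 over these libraries, their shared shape follows from the choice and is a description. All 10 had the same order of genotype means, all 10 were lowest among the o2 libraries in replicate 1, and 9 were highest in replicate 1 of the double genotype. Their log2 differences between the double genotype and WT were 0.46 to 1.83, against 3.39 for fl3. The largest, 1.83, was that of GRMZM6G370842, at 23.6 ± 1.84 FPKM in the double genotype, 21.2 ± 6.92 in o2, 14.1 ± 0.164 in PbfRNAi and 5.89 ± 0.464 in WT.

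**Figure D5:**
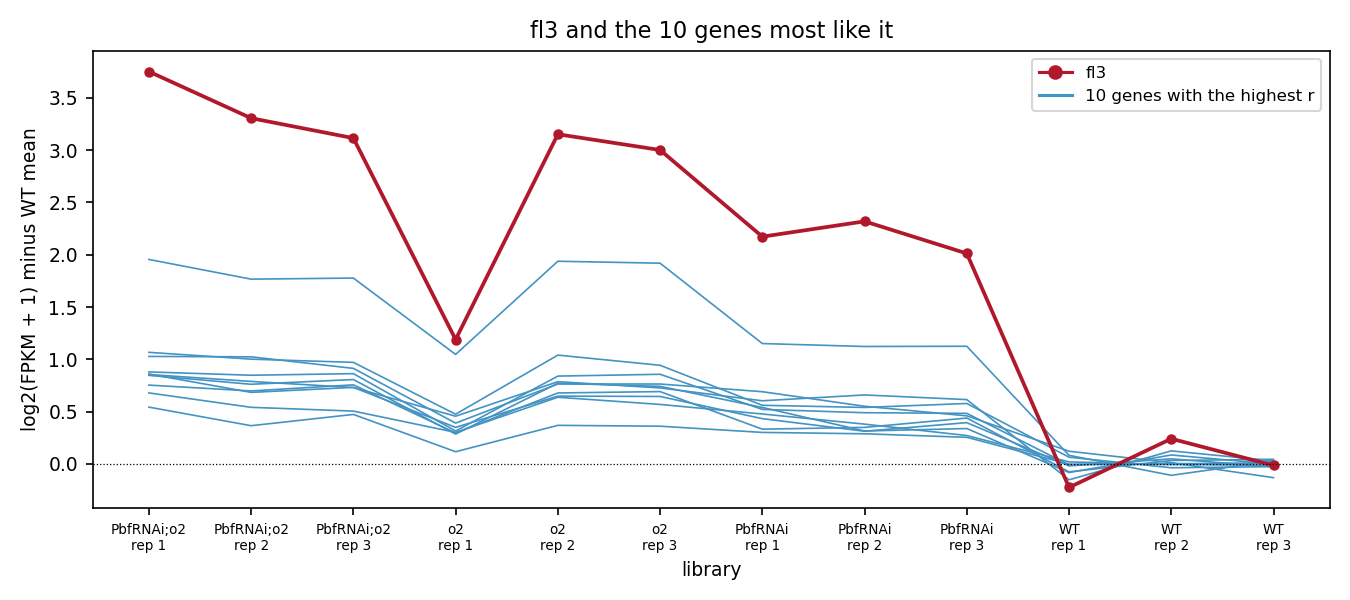
Log2(FPKM + 1) minus the WT mean in each library for fl3 (thick line) and the 10 genes with the highest correlation to it (thin lines). The lines dip at o2 replicate 1, and fl3 reaches a mean difference of 3.39 in the double genotype where the others reach 0.46 to 1.83.

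Which genes counted as most alike changed with the scaling. After median-of-ratios scaling, 2 of the 10 were still among the first 10, GRMZM2G109383 (r = 0.968) and GRMZM6G370842 (r = 0.963). Genes with r of at least 0.9 numbered 338 on deposited values and 28 on scaled values, and the median r on scaled values was 0.133. By Spearman correlation 2 of the 10 were among the first 10, and over the 8 libraries of replicates 2 and 3 none was.

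A log2 difference of at least 2 between the double genotype and WT together with r of at least 0.9, limits set after the values were seen, was met by 15 genes. One was the ribosomal protein gene rps13 (r = 0.948), at 70.1 ± 7.07 FPKM in the double genotype, 44.4 ± 7.52 in o2, 35.6 ± 8.69 in PbfRNAi and 13.8 ± 0.387 in WT. Another was gz27 (r = 0.926), listed at 0 in every WT library, which can be a failed estimate. The most opposed profiles were those of GRMZM2G107073 (r = −0.892), the alpha-zein gene z1C1_12 (r = −0.886), GRMZM2G026793, GRMZM2G173684 and GRMZM2G015090. Of these z1C1_12 was the abundant one in WT. It averaged 1.04 ± 0.213 FPKM in the double genotype, 1.53 ± 0.893 in o2 and 5.48 ± 0.196 in PbfRNAi, against 1927 ± 793 in WT.

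Among factors of RNA polymerase III transcription, 3 genes could be matched by symbol, and all were scarce. TFIIIA, a factor for the gene of the smallest ribosomal RNA, averaged 4.50 ± 0.412 FPKM in the double genotype, 5.62 ± 0.568 in o2 and 3.93 ± 0.189 in PbfRNAi, against 3.90 ± 0.574 in WT (SD, n = 3 each). The TATA-box-binding protein, which serves RNA polymerase III and other RNA polymerases, is encoded by tbp1 and tbp2. The tbp2 transcript averaged 3.53 ± 0.309 in the double genotype, 3.59 ± 0.343 in o2 and 2.59 ± 0.397 in PbfRNAi, against 2.48 ± 0.581 in WT. The tbp1 transcript averaged 1.86 ± 0.124 in the double genotype, 2.53 ± 0.256 in o2 and 1.34 ± 0.128 in PbfRNAi, against 1.59 ± 0.174 in WT.

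By limma's moderated test with adjustment over all genes, 1 of these 3 rose in the double genotype, tbp2 (log2 difference 0.39 ± 0.14, SE; limma adjusted p = 0.033), where 55.4% of all tested genes were called higher and 4.75% lower. In o2 all 3 rose, by 0.41 to 0.45 (limma adjusted p = 0.0068 for tbp1, 0.012 for TFIIIA and 0.031 for tbp2), where 48.6% of all genes were called higher and 2.63% lower. In PbfRNAi limma called 0 of 3, also at an unadjusted p under 0.05, where 18.2% of all genes were called higher and 5.16% lower. Their median log2 difference was 0.17 in the double genotype, 0.44 in o2 and 0.02 in PbfRNAi, beside 0.48, 0.41 and 0.16 for all tested genes. After median-of-ratios scaling limma called 0 of 3 in each comparison with WT. Of all genes 19.8% were then called higher and 16.2% lower in the double genotype. The shares were 8.85% and 7.94% in o2, and 11.3% and 9.64% in PbfRNAi. At an unadjusted p under 0.05 limma called 2 on scaled values in the double genotype, 0 in o2 and 1 in PbfRNAi. The share of all genes at that limit is not given, so these counts cannot be set beside it. In the double genotype all 3 scaled differences were below 0, at −0.04 for tbp2, −0.22 for tbp1 and −0.30 for TFIIIA. The 4 calls summed over these comparisons were 1 without WT replicate 2, 2 without WT replicate 3 and 2 without o2 replicate 2.

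Ribosomal protein genes, whose products assemble with ribosomal RNA, were higher in the mutants. Of 30 genes with such a symbol 28 were tested, and by limma 27 rose in the double genotype, 24 in o2 and 20 in PbfRNAi, while none fell. Of all tested genes, 55.4%, 48.6% and 18.2% were called higher in these comparisons. Their median log2 differences were 1.33, 1.02 and 0.62 in that order, beside 0.48, 0.41 and 0.16 for all tested genes. After median-of-ratios scaling 21 rose in the double genotype, 15 in o2 and 11 in PbfRNAi, where 19.8%, 8.85% and 11.3% of all genes were called higher. Without WT replicate 2 the count in PbfRNAi was 13. The largest log2 difference of any member from WT was 2.26 in the double genotype, 1.61 in o2 and 1.28 in PbfRNAi, each smaller than that of fl3.

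Abundant members give the levels. The rps4 model GRMZM2G035017 averaged 259 ± 16.4 FPKM in the double genotype, 205 ± 18.2 in o2 and 171 ± 20.9 in PbfRNAi, against 113 ± 4.69 in WT (log2 difference 1.19 ± 0.12, SE, in the double genotype; limma adjusted p = 7.6e-06). A second rps4 model, GRMZM2G125271, averaged 249.7 ± 27.9 in the double genotype, 215 ± 25.8 in o2 and 149 ± 25.9 in PbfRNAi, against 90.5 ± 0.264 in WT. No library of the 3 mutant genotypes overlapped with WT in either model. All 9 mutant libraries were above all 3 WT libraries in 18.6% of all tested genes. The 1 gene not called in the double genotype was rpl30 (GRMZM2G027728; limma adjusted p = 0.051, and 0.026 with the replicate number as a block), at 2.22 ± 0.315 in the double genotype, 0.923 ± 0.912 in o2 and 1.27 ± 0.467 in PbfRNAi, against 1.03 ± 0.426 in WT. Near-identical copies of ribosomal protein genes can share reads, so the level of a single copy is uncertain.

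The double genotype was also compared with each single genotype in these genes. Against PbfRNAi 22 of 28 rose and 1 fell, where 38.9% of all genes were called higher and 6% lower. The member that fell was RPL19 (GRMZM5G887054), named after its values were seen, at 137 ± 17.7 FPKM in the double genotype and 201 ± 49.6 in PbfRNAi (limma adjusted p = 0.024). After median-of-ratios scaling 9 rose and 1 fell against PbfRNAi, where 15.2% of all genes were called higher. Against o2 7 rose and none fell, where 14.4% of all genes were called higher and 7.84% lower. After median-of-ratios scaling 3 rose against o2, where 12.4% of all genes were called higher. The interaction was called below 0 in 2 and above 0 in none, where 3.83% of all genes were called above and 5.49% below. At an unadjusted p under 0.05 limma called 9. With the replicate number as a block the interaction was called below 0 in 4, and after median-of-ratios scaling in 1. Shares of all genes are not given for that limit or for these other fits, so these further counts cannot be set beside them.

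Genes next to fl3 on the chromosome stood at low levels in every genotype. In the gene order of the reference assembly, the 5 nearest genes on each side that match the value table gave 11 models, of which 8 were tested, and no genotype mean of any of them was above 17.2 FPKM. The 10 matched genes lie in a stretch of 58 reference genes apart from fl3, so unmatched genes lie between them. By limma 2 of the 8 rose and none fell in the double genotype, 3 rose and none fell in o2, and none rose and 1 fell in PbfRNAi. Of all tested genes 55.4% were called higher and 4.75% lower in the double genotype, 48.6% and 2.63% in o2, and 18.2% and 5.16% in PbfRNAi. After median-of-ratios scaling 1 rose and 2 fell in the double genotype, 2 rose in o2 and 1 fell in PbfRNAi. Of all genes 19.8% were then called higher and 16.2% lower in the double genotype, 8.85% and 7.94% in o2, and 11.3% and 9.64% in PbfRNAi. With the replicate number as a block 2 rose and 1 fell in PbfRNAi, where 5289 of the 17058 tested genes were called. The 6 calls over the 3 comparisons were 3 without WT replicate 2, 3 without WT replicate 3 and 11 without the replicate 1 libraries.

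The nearest matched gene on one side, GRMZM2G051790, averaged 5.39 ± 0.871 FPKM in the double genotype, 10.3 ± 0.383 in o2 and 6.24 ± 1.14 in PbfRNAi, against 4.76 ± 0.385 in WT. It rose in o2 (log2 difference 0.98 ± 0.14, SE; limma adjusted p = 0.00026), and in the double genotype its difference was 0.14 (limma adjusted p = 0.39), or −0.34 after median-of-ratios scaling (limma adjusted p = 0.0502). The nearest on the other side, HAK3, a potassium transporter gene by its name, had a mean of at most 0.00737 FPKM in any genotype and was not tested. GRMZM2G145118 and GRMZM2G123842 were likewise at or near 0. GRMZM2G083836 averaged 16.8 ± 1.03 in the double genotype, 17.2 ± 1.37 in o2 and 11.7 ± 2.09 in PbfRNAi, against 8.59 ± 2.09 in WT. It rose in the double genotype (limma adjusted p = 0.00041) and in o2 (limma adjusted p = 0.00068), and was not called in PbfRNAi (limma adjusted p = 0.083, and 0.042 with the replicate number as a block). GRMZM2G173119 rose in the double genotype, at 12.98 ± 1.60, against 9.56 ± 2.24 in WT (limma adjusted p = 0.034), and GRMZM2G102015 rose in o2, at 4.10 ± 0.351, against 2.83 ± 0.161 in WT (limma adjusted p = 0.023). After median-of-ratios scaling neither was called, with log2 differences of −0.11 for GRMZM2G173119 (limma adjusted p = 0.59) and 0.01 for GRMZM2G102015 (limma adjusted p = 0.96). THIM, near the filter level of 1 FPKM, fell in PbfRNAi, at 0.696 ± 0.141, against 1.19 ± 0.130 in WT (limma adjusted p = 0.04). After median-of-ratios scaling THIM was called lower in the double genotype (log2 difference −0.41, limma adjusted p = 0.017) and in PbfRNAi (−0.51, limma adjusted p = 0.0087). In o2 it was not called (−0.37, limma adjusted p = 0.053). No call was made against WT for GRMZM2G302405 or for GRMZM2G017666 and GRMZM2G439589, which share 1 reference gene.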

How the data were processed

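The authors deposited 1 table of FPKM values with 1 column per library. Per the labels' protocols, total RNA was extracted with TRIzol, depleted of ribosomal RNA and read as 125 nt pairs on an Illumina HiSeq. The submitters' processing notes name FastQC, TopHat, Bowtie2, Cufflinks and the build B73 RefGen_v3, with no versions, settings or strand choice. FPKM sums were 430405 to 519817 per library. At FPKM of at most 0.5, 21.2% to 39.8% of ratios between replicates 2 and 3 lay within 0.02 (log2) of a ratio of whole numbers up to 5, so reads were not recovered, the depth is unknown and no counting interval is given.

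The 17058 genes that reached 1 FPKM in 3 or more libraries were fitted on log2(FPKM + 1) with limma 3.58.1 in R 4.3.3, with 4 genotype means, a variance trend and robust moderation. Tests were two-sided, with Benjamini-Hochberg adjustment over all genes and a threshold of 0.05. Log2 differences understate the change of low genes. In simulated data on 17058 genes, 72% to 75% of genes changed by 1 (log2) and 95% to 97% of those changed by 2 were recovered in the 3 comparisons with WT. Per comparison, 5 to 14 unchanged genes were called. The simulation changed 200 genes and drew noise independently for each library, with no shared replicate deviation and no shift of the typical gene. These rates therefore need not hold for the real libraries. Other steps used python 3.11.15, numpy 2.4.6 and pandas 2.3.3. The design text calls the replicates biological and does not say what was separate, so p-values measure the spread between these libraries. Same-numbered replicates deviated together, with correlations of 0.18 to 0.501 over 18 pairs of libraries. No pairs of unlike number are given beside them, so these values cannot show whether the numbers pair the libraries. A replicate block was an alternative fit. Other alternatives were scalings, a pseudocount of 0.1, no filter and leaving out libraries.

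Names came from RefSeq genes on Zm-B73-REFERENCE-NAM-5.0, a different build, used for names and gene order only, and 18906 models matched. Matching was by symbol, so the polymerase III and ribosomal lists are by symbol, and the planned lists of other PLATZ genes and tRNA ligases were not analysed here. No sequence was used here. The gene and the lists were chosen with earlier results of these data known. The rule for named genes covers fl3, the targeted genes, the called polymerase III genes, the 3 most abundant called (1 of them is not reported here) and the most abundant uncalled ribosomal genes, the 10 neighbours on the chromosome, the 10 most and 5 least alike genes, the 2 neighbours in rank on each side, and the most abundant markers.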

Additional observations from a re-analysis of the deposited data

Results flagged for a closer look

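The effect of the o2 mutation differed between the PbfRNAi and WT backgrounds in 3 named genes, by limma's test of the interaction with adjustment over all genes. These were 3 of 32 named genes tested, or 9.38%, and 9.32% of all tested genes were called, so the share is that of all genes. The interaction was −1.16 ± 0.19 (log2, SE; limma adjusted p = 0.0025) for GRMZM2G051790, the nearest matched neighbour of fl3. It was −1.13 ± 0.21 (log2, SE; limma adjusted p = 0.0056) for pbf1. For z1C1_12 it was 7.86 ± 0.42 (log2, SE; limma adjusted p = 3.9e-07), with means of 1.04 FPKM in the double genotype, 1.53 in o2 and 5.48 in PbfRNAi, against 1927 in WT. Both single genotypes were already near the floor of log2(FPKM + 1). A second drop of like size could not be measured there, so a large value above 0 was bound to appear.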

How the results depend on the processing

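All 16 results were recomputed under 19 alternatives. None of the fl3 log2 differences changed sign, while the counts of calls have no sign to change. Several alternatives could not move an fl3 difference: no filter, the replicate block, and leaving out a library of a genotype outside the comparison. With scaling to genes outside the 100 most abundant, the fl3 log2 difference from WT was 2.63 in the double genotype and 1.85 in o2. Without the replicate 1 libraries it was 0.13 for the double genotype against o2, and the interaction was −1.92. Leaving out 1 library gave 2.10 to 3.08 for o2 against WT, 0.31 to 1.30 for the double genotype against o2, and −1.85 to −0.87 for the interaction, the ends at 3.08, 0.31 and −1.85 being those without o2 replicate 1. Genes called were 10259 in the double genotype, 8730 in o2 and 3978 in PbfRNAi against WT. They became 6140 and 2865 in the first 2 with median-of-ratios scaling and 6593 and 2944 scaled outside the 100 most abundant. Of the calls against WT, 9448 were higher in the double genotype, 8282 in o2 and 3097 in PbfRNAi, and 3374, 1510 and 1934 with median-of-ratios scaling. For the double genotype against PbfRNAi, 7657 became 4794 and 4837 under these scalings. Without the replicate 1 libraries 8343 were called in PbfRNAi, and 8444, against 3793, for the double genotype against o2. PbfRNAi ran from 2637 to 4640 with 1 library left out. Ribosomal protein genes higher were 15 in o2 and 11 in PbfRNAi with median-of-ratios scaling, 14 and 11 outside the 100 most abundant, 11 in PbfRNAi as TPM, and 13 to 23 in PbfRNAi with 1 library left out. Calls summed over the 3 comparisons with WT were 4 for polymerase III genes, 2 as TPM, 0 with median-of-ratios scaling and 1 to 4 with 1 library left out. For the genes adjacent to fl3 they were 6, 11 without the replicate 1 libraries and 3 to 7 with 1 library left out. With the replicate block the genes called were 11360 in the double genotype, 10290 in o2 and 5289 in PbfRNAi, and the block moved none of these 3 totals by over 1.5 times. The causes were not tested. The E-value alternative for PLATZ genes was not run, since no protein table was used. The unknown depth limits every value at low FPKM.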
